A study of Mus musculus with 4 samples.

Results

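The genes described here encode the translation initiation factors and elongation factors of the mouse. They were taken by name, as the protein-coding genes whose symbol begins with Eif or Eef followed by a digit, with the kinase gene Eif2ak2 left out. This gave 63 of the 23475 genes in the tables. Their mRNA was measured in astrocytes that had been isolated from mouse cerebral cortex on postnatal day 5. There were 4 libraries, 2 with the title WT and 2 with the title KO. The study's design text names 2 kinds of mice, PD1fl/fl, which carry a floxed PD-1 gene, and PD1cKO-Cx3, a conditional PD-1 knockout whose name carries Cx3. The titles of the libraries give only WT and KO, which are taken here as the first and the second kind. The sources used here do not describe the Cre driver further, nor the age in finer steps, the sex or the number of mice behind a library. KO and WT below always mean libraries labelled so.

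Protein synthesis begins when eIF2, bound to GTP, brings the initiator tRNA to the small ribosomal subunit. The subunit also carries eIF1, eIF1A, eIF3 and eIF5, and it is loaded onto an mRNA by eIF4F, the complex of the cap-binding protein eIF4E, the helicase eIF4A and the scaffold eIF4G. After the start codon has been found and the large subunit has joined, eEF1A delivers each aminoacyl-tRNA, eEF2 moves the ribosome along, and eIF5A helps at difficult peptide bonds. Control is exerted mainly at eIF2, whose alpha subunit is phosphorylated by stress kinases, and at eIF4E, which is held by the 4E-BP proteins until the kinase mTORC1 phosphorylates them. In astrocytes as in other cells these factors are housekeeping proteins, and mRNAs of many of them begin with a run of pyrimidines through which mTORC1 sets their translation.

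Promoter sequence was on hand for 49 of the 63 genes, from RefSeq on the mouse build GRCm38.p6, as windows from 250 bases before to 50 bases after each annotated transcription start. A run of at least 8 C or T bases that reached within 20 bases of the start was found in 15 of the 49 members (30.6%), against 24.4% of the tested protein-coding genes with a window. The following stretches are shown because they carry such a run in genes described below. Each is read 5′ to 3′ on the gene's strand, and capitals mark the run. The first pair comes from the X and Y copies of the gene for eIF2 gamma, Eif2s3x at chrX:94212629-94212658 on the minus strand and Eif2s3y at chrY:1010590-1010619 on the plus strand. The other pair comes from the eIF3 subunit gene Eif3f at chr7:108934365-108934439 and from Eef2 at chr10:81176581-81176655, both on the plus strand.
Eif2s3x: caTTTTCCTTTTCTCTCCgagcaagatggc
Eif2s3y: cagccaCTTCCTTCTTTCgtgagcaagatg
Eif3f: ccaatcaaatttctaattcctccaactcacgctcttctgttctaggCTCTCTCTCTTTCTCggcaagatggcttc
Eef2: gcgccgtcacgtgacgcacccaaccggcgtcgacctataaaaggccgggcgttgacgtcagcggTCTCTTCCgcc

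The run was 16 bases long in Eif2s3x, 12 in Eif2s3y, 15 in Eif3f and 8 in Eef2. A search of both strands for CCGGAAG, the core bound by ETS-family factors, matched 17 of the 49 members (34.7%), against 18.3% of the tested protein-coding genes with a window. The palindrome CACGTG, the E-box bound by MYC and related factors, matched 12 members (24.5%, against 11.3%). TGATGNAA, a form of the element bound by ATF4, matched 2 members (4.08%, against 2.86%). None of the 3 motifs contains another, and 1 promoter can hold several. The stretches below come from genes with a difference described below or with the motif at the start itself, and capitals mark the motif. They are Eef1b2 at chr1:63176781-63176852 on the plus strand, Eif2b4 at chr5:31193120-31193149 on the minus strand, 2 stretches of Eif1b at chr9:120492446-120492475 and chr9:120492570-120492599 on the plus strand, and Eif4ebp2 at chr10:61452665-61452799 on the minus strand.
Eef1b2: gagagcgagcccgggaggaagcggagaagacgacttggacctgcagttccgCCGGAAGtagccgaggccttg
Eif2b4: cccagtgcacgCCGGAAGttgtagtccgct
Eif1b, distal: gccgttgcacCCGGAAGcgcctccgcccgg
Eif1b, proximal: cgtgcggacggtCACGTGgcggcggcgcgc
Eif4ebp2: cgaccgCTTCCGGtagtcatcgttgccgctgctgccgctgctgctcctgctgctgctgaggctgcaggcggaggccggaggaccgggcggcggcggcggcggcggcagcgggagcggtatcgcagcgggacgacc

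In Eif4ebp2 the letters CTTCCGG are CCGGAAG read on the opposite strand, 124 bases before the start. In Eif1b the same motif lay 150 bases and CACGTG 24 bases before the start. By the GENCODE M21 annotation the stretches of Eif2s3x, Eif2s3y and Eif2b4 and the proximal one of Eif1b lie wholly in an exon of their gene, those of Eif3f, Eef2 and Eef1b2 lie partly in one, and the distal one of Eif1b and that of Eif4ebp2 lie in none. A match describes letters in a window and not a bound site. Members with and without a match differed little in their KO minus WT difference, given as the log2 fold change. Its median was -0.07 with CCGGAAG and -0.02 without, -0.11 and -0.02 for CACGTG, and -0.06 and -0.02 for the pyrimidine run.

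The libraries held 14224519 to 16961160 counts. Pdcd1, the targeted gene, was counted 20 times (1.23 CPM) in KO replicate 2 and was listed at 0 in both WT libraries. In KO replicate 1 it could have had at most 4 counts. It thus does not show a loss in KO, and its counts in KO replicate 2 run opposite to the label. The counts are few, the knockout is conditional, and the sources used here do not say which cells it covers. Pdcd1 therefore cannot serve as a check of the labels. KO replicate 2 stood apart by its sex chromosomes, with 2472 counts of the Y gene Ddx3y and none listed for Xist. Xist had 6732 to 8564 counts in the other 3 libraries. The 12 astrocyte markers summed to 10000 to 11763 CPM in every library. CPM are counts scaled to a common library total, after TMM scaling of the totals. The 15 microglia markers summed to 5098 and 4174 CPM in KO replicates 1 and 2 and to 958 and 1374 CPM in WT replicates 1 and 2, and all 15 had a higher mean in KO, none of them at 0 in any library. The 12 endothelial markers summed to 599 and 302 CPM in KO and to 186 and 70.7 CPM in WT. In such bulk samples fewer cells of a type and less RNA per cell cannot be told apart. The labels do not say that the libraries came from separate animals, so a p-value reflects only how far these libraries scatter, which may be technical.

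The factors were among the more abundant mRNAs of these libraries, which also held markers of other cell types, but they spanned a wide range. Of the 63 members, 61 passed the filter on low counts and were tested, and 50 of them lay above the median of all 17696 tested genes, which was 18.1 CPM. All members together took 1.38% and 1.497% of the counts in KO replicates 1 and 2 and 1.49% and 1.47% in WT replicates 1 and 2. Those figures take no account of length, so the order of the members is given as CPM per kb of exon. On that scale the highest was Eef1a1, which encodes the main tRNA-delivering elongation factor, at a mean of 1847. It was followed by the helicase gene Eif4a1 at 280, the scaffold gene Eif4g2 at 180, Eef2 at 158 and the helicase cofactor gene Eif4h at 137. The lowest tested member was Eif3j2 at 0.312, and the median over all members was 17.9. As counts, without regard to length, the 5 highest genes made up 60.0% to 62.9% of all member counts in each library.

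**Figure D1:**
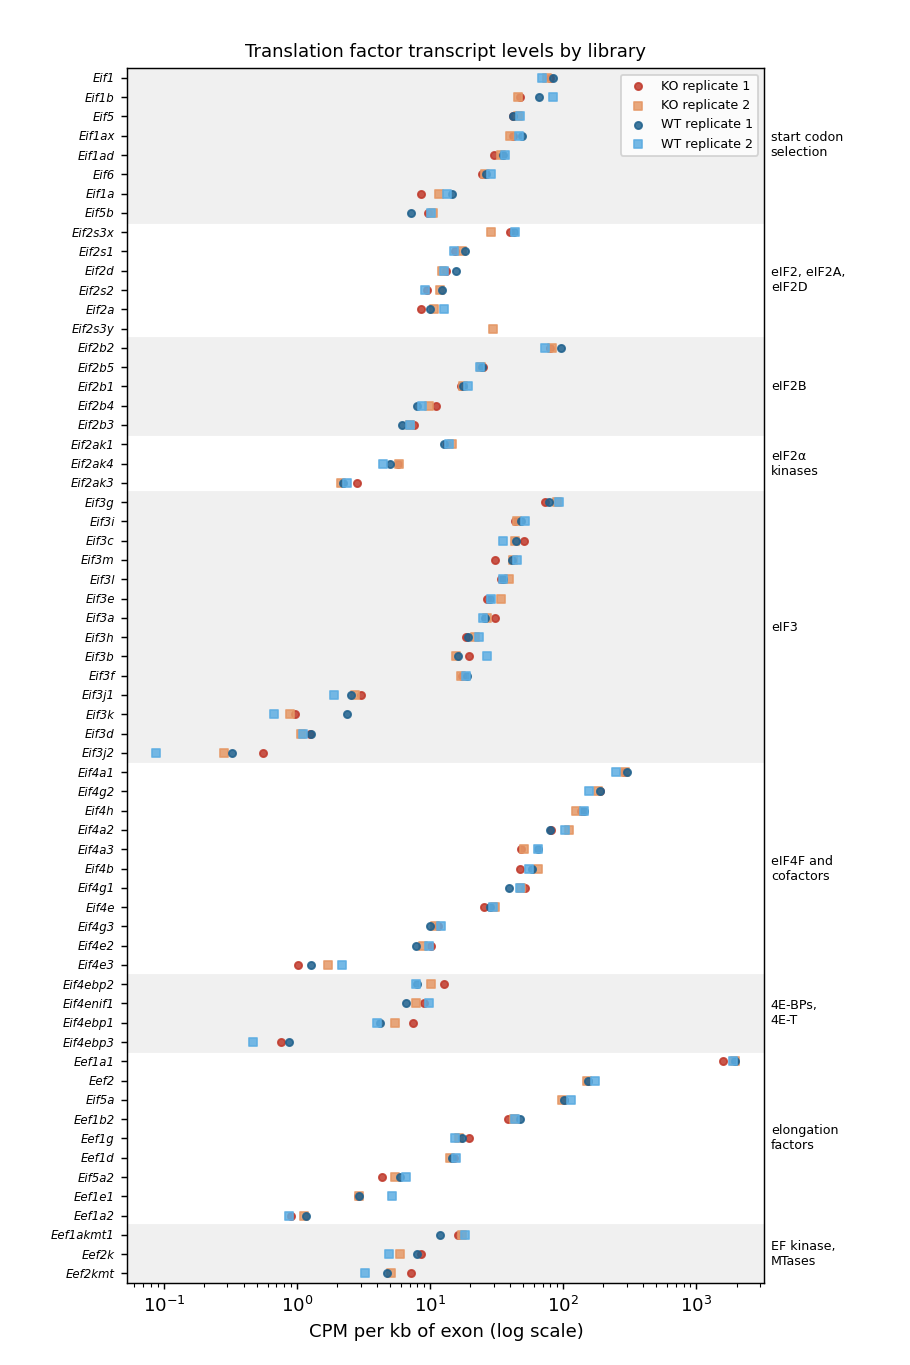
Level of each of the 63 translation factor genes in each of the 4 libraries, as CPM per kb of exon on a log axis, grouped by role and ordered by mean within a role; libraries with no count are not drawn. Eef1a1 lies at 1587 to 1962 in every library, and within nearly every row the 4 libraries sit close together compared with the spread between genes.

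Between KO and WT, 0 of the 61 members passed the adjusted threshold of 0.05 in edgeR's quasi-likelihood test, in either direction. The background was as thin, since 3 of the 17696 genes were called higher (0.017%) and 0 lower (0%). At an unadjusted edgeR p under 0.05 there were 1 member higher, Eif4ebp2, and 2 lower, Eif1b and Eif4a3, against 5.88% and 2.41% of all genes. DESeq2 called 0 members among 315 genes higher (1.78%) and 63 lower (0.356%), and limma-voom called 0 among 25 higher (0.141%) and 3 lower (0.017%). The lowest adjusted p of a member was 0.447 in edgeR, 0.141 in DESeq2 and 0.396 in limma-voom. Leaving out 1 library changed this in 1 case. Without KO replicate 1 the Y gene Eif2s3y passed the filter through KO replicate 2 and was called. KO was then only the library with Y counts, so this call does not bear on KO against WT. Over all genes, 6 were called higher with KO replicate 1 left out and 0 with KO replicate 2 left out. Leaving out WT replicate 1 gave 1 such gene, and leaving out WT replicate 2 gave 41.

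The differences were centred near 0. The median log2 fold change was -0.02 over the members and -0.00 over all tested genes, with 27 members above 0 and 34 below. Single members ran from -0.71 for Eif3k to 1.00 for Eif3j2, both of them among the lowest in level. In 24 of the 61 members (39.3%) both KO libraries lay on one side of both WT libraries, 9 higher and 15 lower. Among all tested genes 39.6% did so, 21.2% higher and 18.4% lower, so the members' share was near the background. Because fewer libraries separate more easily, these shares were larger with 1 library left out. With KO replicate 1 left out, 39 of 63 members (61.9%) were separated, against 61% of all genes tested then, and with KO replicate 2 left out 42 of 62 (67.7%, against 65.1%). With WT replicate 1 missing it was 49 of 62 (79%, against 75.1%), and with WT replicate 2 missing 42 of 63 (66.7%, against 71.7%). The 95% interval of the fold change stayed within 2-fold in both directions for 47 of the 61 members, against 6997 of the 17696 genes. The median standard error was 0.19 on the log2 scale for the members and 0.36 for all genes.

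Single libraries weighed on most of these values. In 34 of the 40 members that the naming rule picked, leaving out at least 1 library moved the log2 fold change by over 1.5 times or turned its sign. The other 6 were Eif1ax, Eif1b, Eif2ak4, Eif2b4, Eif4a3 and Eif4ebp2.

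**Figure D2:**
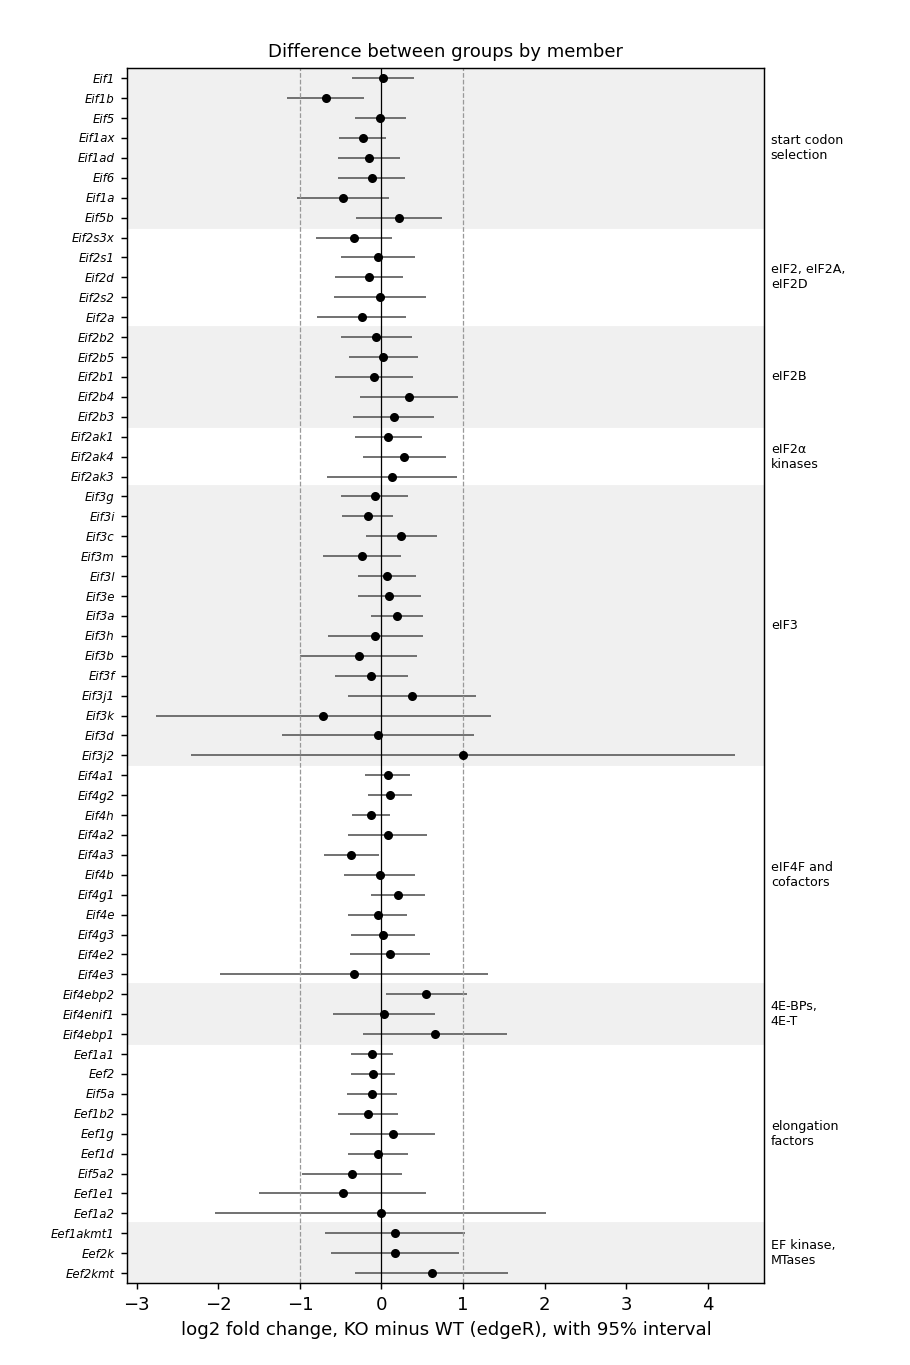
Log2 fold change of each of the 61 tested members, KO minus WT, with its 95% interval from edgeR, grouped by role; dashed lines mark a 2-fold difference either way. Intervals of 47 members stay between the dashed lines, and the widest belong to genes of low level such as Eif3j2 and Eif3k.

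Of the 4 pairs of a KO with a WT library, 3 lay further apart in these genes than either pair of the same label, and 1 (KO replicate 2 with WT replicate 1) lay closer. Over the 61 members the log2 difference between KO replicates 1 and 2 had a median size of 0.18, and that between WT replicates 1 and 2 also had one of 0.18. The mixed pairs gave 0.15 to 0.23. For all tested genes the same medians were 0.29, 0.39 and 0.35 to 0.42. KO replicate 1 and WT replicate 2 each held the lowest value for 19 members (31.1%), against 25.1% and 29.8% of all tested genes. WT replicate 2 held the highest for 22 (36.1%, against 28.0%). KO replicate 1 was the lowest of the 4 libraries in 6 of the 14 eIF3 genes and in 4 of the 9 elongation factor genes. WT replicate 1 was the lowest in none of either. In the 11 genes of eIF4F and its cofactors KO replicate 1 and WT replicate 1 were each the lowest in 4. Over all tested genes these libraries were the lowest in 25.1% and 25.8%.

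Among the 8 genes grouped here by name under start codon selection and subunit joining, 6 had a log2 fold change below 0, with a median of -0.14. In 5 of the 8 the groups did not overlap, all with KO lower (18.4% of all tested genes were so placed, and 39.6% either way). In Eif1ad and Eif6, which are among the 5, the gap was small. None passed the adjusted threshold. Eif1b encodes a close relative of eIF1, the factor that keeps the scanning ribosome from settling on a wrong codon. Its gene spans chr9:120492232-120495330 on the plus strand of GRCm38. It was measured at 53.5 and 51.3 CPM in KO replicates 1 and 2 and at 74.4 and 94.1 CPM in WT replicates 1 and 2. Both KO values lay below both WT values, and the means were 52.4 ± 1.57 and 84.3 ± 13.9 CPM (SD, n = 2 each). The log2 fold change was -0.69 ± 0.19 (SE), with an unadjusted edgeR p of 0.0129 and an adjusted p of 0.447, the lowest of all members.

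Eif1 itself was at 167 and 157 CPM in KO and 176 and 144 CPM in WT. Its groups overlapped, with a log2 fold change of 0.02 ± 0.15. Per length Eif1b made up 37.4% and 37.8% of the Eif1 and Eif1b mRNA in KO replicates 1 and 2, and 44.0% and 54.9% in WT replicates 1 and 2. Of the 50-base windows of Eif1's transcripts 31.6% also occur in other genes, against 0.811% for Eif1b, so reads of Eif1 can be shared with copies. The 12 neuron markers had a lower sum in both KO libraries, at 2461 and 2567 CPM against 2766 and 3145 CPM in WT, none of them at 0 in any library. Of the 12, 8 were below 0 and 4 above, and 5 had both KO values below both WT values, as did 18.4% of all tested genes. Their part in the Eif1b result was not tested.

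The 2 genes for eIF1A, which sits in the decoding site of the scanning ribosome, were also separated. Eif1ax, on the X chromosome, was at 219 and 209 CPM in KO and 255 and 246 CPM in WT, so that the lower WT value exceeded the higher KO value. Its log2 fold change was -0.23 ± 0.12, with an adjusted edgeR p of 0.701. Eif1a was at 35.7 and 48.4 CPM in KO and 60.9 and 56.0 CPM in WT. That is a log2 fold change of -0.48 ± 0.23 with an adjusted edgeR p of 0.671, and the value was -0.71 with KO replicate 2 left out and -0.27 with KO replicate 1 left out. Eif5, whose product triggers GTP hydrolysis by eIF2, was at 287 and 312 CPM in KO and 283 and 323 CPM in WT, with overlapping groups. The other 3 genes were Eif1ad, Eif6, whose product keeps the large subunit from joining too early, and Eif5b, whose product drives that joining. Their log2 fold changes ran from -0.16 to 0.22. Eif1ad was at 83.9 and 95.4 CPM in KO and 98.5 and 101.2 CPM in WT, and 15.1% of its windows occur in another gene. Eif6 was at 66.6 and 69.8 CPM in KO and 71.2 and 77.2 CPM in WT. Reads of Eif5b cannot be fully separated from those of Rev1, which overlaps it in 18.2% of its windows.

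**Figure D3:**
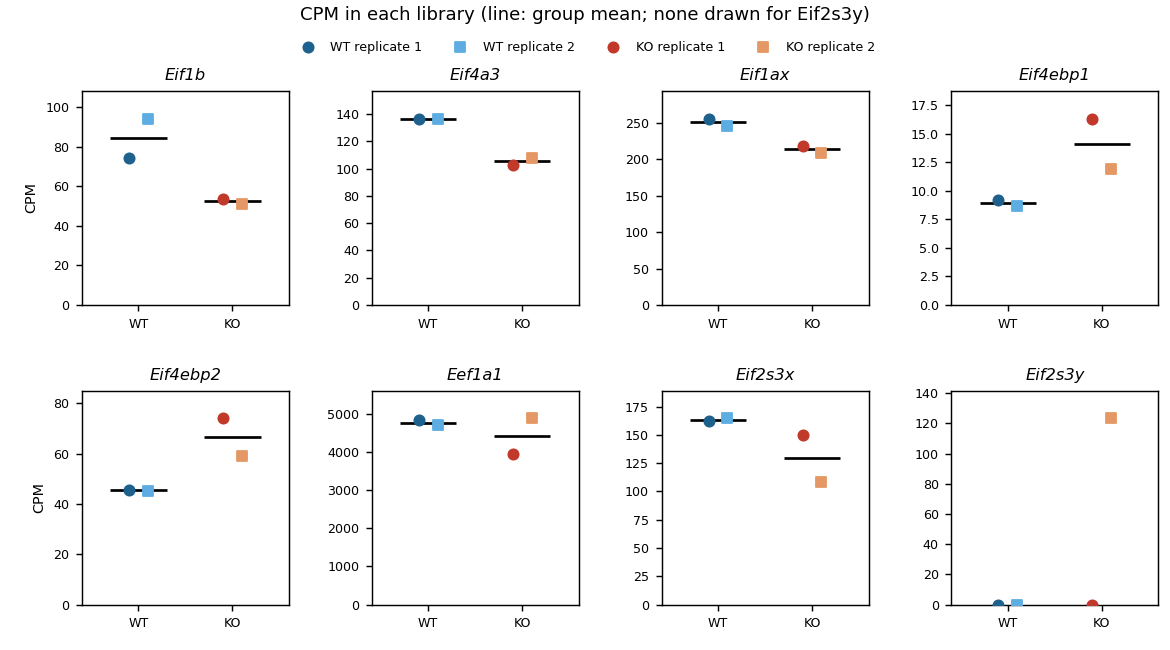
CPM of 8 members in each of the 4 libraries, with a line at the mean of each group except for Eif2s3y. Eif1b, Eif4a3 and Eif1ax are lower in both KO libraries and Eif4ebp1 and Eif4ebp2 higher, without passing the adjusted threshold, while Eif2s3y was counted in KO replicate 2 alone.

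In the eIF2 group all 5 tested genes had a log2 fold change below 0, with a median of -0.15. Only 1 of them was separated between the groups, against 39.6% of all tested genes. Eif2s3x, the X-linked gene for the gamma subunit that holds GTP and the initiator tRNA, was at 150 and 109 CPM in KO replicates 1 and 2 and at 162 and 165 CPM in WT replicates 1 and 2. KO replicate 2 was the low library. The log2 fold change of -0.34 ± 0.19 had an adjusted edgeR p of 0.743, and it was -0.12 with KO replicate 2 left out and -0.59 with KO replicate 1 left out. Eif2s3y, its copy on the Y chromosome, had 2010 counts (123 CPM) in KO replicate 2, the library with Ddx3y and no listed Xist. It was listed at 0 in both WT libraries, which allows up to 0.178 and 0.209 CPM from counting error alone, and in KO replicate 1 it was not listed, which allows at most 4 counts or 0.250 CPM.

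Within KO replicate 2 the pair was nearly even per exon length, with Eif2s3y giving 51.0% of the eIF2 gamma mRNA. That length is the union of all annotated exons, 4161 bases for Eif2s3y and 3812 for Eif2s3x. The longest coding transcripts have 1836 and 3647 bases, so the share and the sums per kb depend on the length taken. The sum of both genes was 231.9 CPM in that library, against 150.4 CPM in KO replicate 1 and 162.2 and 164.6 CPM in WT. Per kb the sum was 58.1 against 39.5, 42.5 and 43.2, so that KO replicate 2 was the lowest library for the X copy alone and the highest for both copies together. Eif2s3x shares 36.2% of its windows with the pseudogene Gm2223, and no window with Eif2s3y was found. Without any X and Y genes the members' median log2 fold change was -0.02 and 22 members were separated. With them 24 were, or 39.3% of the tested members, against 39.6% of all tested genes.

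The other subunits showed smaller differences. Eif2s1, the alpha subunit that stress kinases phosphorylate, and Eif2s2, the beta subunit, had log2 fold changes of -0.04 and -0.02. Eif2d and Eif2a encode factors that can bring tRNA to the ribosome without eIF2. Eif2d was at 96.7 and 90.8 CPM in KO and 114 and 93.4 CPM in WT, and Eif2a at 52.0 and 65.2 CPM in KO and 60.7 and 77.9 CPM in WT. Both overlapped between groups, with log2 fold changes of -0.15 ± 0.17 and -0.24 ± 0.22.

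eIF2B, the exchange factor that reloads eIF2 with GTP and the target of mutations in vanishing white matter disease, showed unequal levels among its 5 subunit genes. The means per kb were 82.5 for Eif2b2, 24.2 for Eif2b5, 17.9 for Eif2b1, 9.39 for Eif2b4 and 6.97 for Eif2b3. Eif2b5, the catalytic subunit, was at 64.6 and 62.2 CPM in KO and 63.1 and 61.7 CPM in WT, a log2 fold change of 0.02 ± 0.17. Eif2b2 was at 150 and 154 CPM in KO and 182 and 136 CPM in WT, where the WT libraries enclosed both KO values. Eif2b4 was at 28.9 and 25.5 CPM in KO and 20.7 and 22.5 CPM in WT, so both KO values were higher, with a log2 fold change of 0.33 ± 0.24 and an adjusted edgeR p of 0.829. Eif2b3 was at 49.4 and 46.2 CPM in KO and 40.1 and 46.0 CPM in WT. The groups of Eif2b3 missed each other only narrowly, and those of Eif2b1 did so with KO lower (log2 fold change -0.10).

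The 3 genes for eIF2 alpha kinases among the members had log2 fold changes above 0 and a median of 0.13. The kinase gene Eif2ak2 was left out by the selection and is not described here. Eif2ak4 encodes GCN2, which senses uncharged tRNA. It was at 42.6 and 43.3 CPM in KO and 37.4 and 33.2 CPM in WT, the 1 kinase gene here whose groups did not overlap (39.6% of all tested genes did not). Its log2 fold change was 0.28 ± 0.21 with an adjusted edgeR p of 0.830. Eif2ak1, the haem-regulated kinase, was at 75.2 and 83.0 CPM in KO and 71.5 and 77.8 CPM in WT and overlapped. Eif2ak3 encodes PERK, the kinase of endoplasmic reticulum stress, and had a log2 fold change of 0.13 ± 0.32. Per kb Eif2ak1 was the highest at 13.6, then Eif2ak4 at 5.25 and Eif2ak3 at 2.39.

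eIF3, the large scaffold on the small subunit, is encoded here by 14 genes, of which 6 were above and 8 below 0, at a median log2 fold change of -0.06. The groups did not overlap in 2 genes with KO higher and 2 with KO lower. Of all tested genes 21.2% and 18.4% were so placed. Eif3a, the gene of the largest subunit, was at 269 and 234 CPM in KO and 224 and 218 CPM in WT. Its KO values were both higher, at a log2 fold change of 0.19 ± 0.13 and an adjusted edgeR p of 0.810, and a value of 0.09 with KO replicate 1 left out and 0.28 with KO replicate 2 left out. Eif3e was at 179 and 228 CPM in KO and 187 and 194 CPM in WT, with the KO libraries on both sides of WT. Eif3c was at 179 and 151 CPM in KO and 155 and 123 CPM in WT, a log2 fold change of 0.24 ± 0.18.

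Measured levels of the eIF3 genes were far from equal although their products form 1 complex. Per kb the mean ran from 83.3 for Eif3g through 47.0 for Eif3i, 43.3 for Eif3c and 27.1 for Eif3a to 1.23 for Eif3k and 1.17 for Eif3d. Exon length here is the union of all annotated exons, so a gene with long rarely used exons reads low on this scale. Eif3k and Eif3d were also low without regard to length, at means of 3.31 and 5.81 CPM. Of Eif3d's windows 18.4% also occur in another gene, so its reads can be shared. The cause of these low values was not tested. Eif3j1 and Eif3j2 encode the loosely bound subunit eIF3j. Eif3j1 was at 17.5 and 16.01 CPM in KO and 14.8 and 11.1 CPM in WT, a separation with KO higher. Its log2 fold change was 0.37 ± 0.32, or 0.185 with WT replicate 2 left out and 0.59 with WT replicate 1 left out. Of its windows 54.8% also occur in other genes, so its reads can be shared. Eif3j2 had only 21 and 11 counts in KO and 13 and 3 in WT, and 91.9% of its windows occur in other genes, so its value of 1.00 ± 1.35 and its reads are uncertain. Eif3f, whose pyrimidine run is shown above, was at 50.2 and 48.9 CPM in KO and 54.2 and 54.0 CPM in WT. It was lower in both KO libraries, with a log2 fold change of -0.13 ± 0.18 and an adjusted edgeR p of 0.944. Together with it the 9 subunit genes not yet given ran from -0.71 to 0.07. The lowest, Eif3k, was chosen for mention after its values were seen and had 42 and 39 counts in KO against 108 and 26 in WT.

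Among the 11 genes of eIF4F and its cofactors, 6 were above and 5 below 0, and the median log2 fold change was 0.02. Of the 3 eIF4A genes, Eif4a1 gave 59.6% to 68.7% of their mRNA per length and Eif4a2 18.0% to 24.8%. Eif4a1 was at 1233 and 1262 CPM in KO and 1295 and 1071 CPM in WT. Eif4a2 was at 435 and 592 CPM in KO and 426 and 549 CPM in WT, so that KO replicate 2 and WT replicate 2 were the higher libraries. Both overlapped, with log2 fold changes of 0.08 and 0.07. For Eif4a1 65.3% of the windows occur elsewhere, and the processed pseudogene Eif4a-ps4 alone holds 64.9%. That pseudogene had 2542 and 2682 counts in KO and 2707 and 2026 in WT, against 15402 to 21852 counts of Eif4a1.

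Eif4a3, the remaining eIF4A gene, encodes the helicase that anchors the exon junction complex on spliced mRNA and takes little part in cap-dependent initiation. Its gene lies at chr11:119288363-119300089 on the minus strand. It was at 102.7 and 108.1 CPM in KO and at 136.2 and 136.5 CPM in WT, with both WT values above both KO values. The means were 105 ± 3.85 and 136 ± 0.262 CPM (SD, n = 2 each). The log2 fold change of -0.37 ± 0.14 had an unadjusted edgeR p of 0.0364 and an adjusted p of 0.546. Per length Eif4a3 gave 11.7% and 11.2% of the 3 genes' mRNA in KO and 14.5% and 15.5% in WT. The log2 fold change of Eif4a3 ranged from -0.41 to -0.33 when each library was left out in turn. Of its windows 24.4% also occur in other genes, so its reads can be shared.

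The eIF4G scaffolds were led by Eif4g2, whose product lacks the eIF4E-binding part and serves cap-independent starts. It gave 72.6% to 79.4% of the 3 eIF4G genes' mRNA per length. Eif4g2 was at 1928 and 1862 CPM in KO and 1930 and 1593 CPM in WT, a log2 fold change of 0.11 ± 0.11. Eif4g1, the classical scaffold, was at 375 and 350 CPM in KO and 287 and 342 CPM in WT, with both KO values higher, a log2 fold change of 0.21 ± 0.13 and an adjusted edgeR p of 0.792. The value was 0.08 with WT replicate 1 left out and 0.34 with WT replicate 2 left out. Eif4g3 was at 127 and 121 CPM in KO and 110 and 134 CPM in WT and overlapped.

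Among the cap-binding genes Eif4e gave 69.5% to 75.7% of the mRNA per length. It was at 152 and 183 CPM in KO and 169 and 177 CPM in WT, a log2 fold change of -0.05 ± 0.15. Eif4e2, whose product binds caps without recruiting eIF4G, was at 75.7 and 66.4 CPM in KO and 58.3 and 73.5 CPM in WT. Eif4e3 had 41 and 70 counts in KO and 54 and 79 in WT. No cap-binding gene separated the groups. The cofactor genes Eif4h and Eif4b had log2 fold changes of -0.13 and -0.02.

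The 3 tested genes for inhibitors and the transporter of eIF4E were above 0, with a median log2 fold change of 0.55, and 2 were separated with KO higher, as were 21.2% of all tested genes. Eif4ebp2 encodes 4E-BP2, the main 4E-BP of the brain, and its gene lies at chr10:61428491-61452661 on the minus strand. It was at 74.0 and 58.9 CPM in KO and at 45.7 and 45.1 CPM in WT, so both KO values were higher. The means were 66.5 ± 10.6 and 45.4 ± 0.450 CPM (SD, n = 2 each). Its log2 fold change was 0.55 ± 0.20 with an unadjusted edgeR p of 0.0355 and an adjusted p of 0.542. None of its windows occurs in another gene.

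Eif4ebp1 was at 16.3 and 11.96 CPM in KO and 9.24 and 8.69 CPM in WT, again with both KO values higher. That is a log2 fold change of 0.66 ± 0.36 with an adjusted edgeR p of 0.731, and of 0.42 with KO replicate 1 left out. Its share of the 3 4E-BP genes' mRNA per length was 35.4% and 34.8% in KO and 32.4% in both WT libraries, so the 2 genes kept close to the same proportion. For both genes KO replicate 1 was the highest library, as it was for the summed microglia and endothelial markers given above, whose part in these results was not tested. Eif4ebp3 had 9 and 0 counts in KO and 11 and 5 in WT, did not pass the filter, and shares 65.5% of its windows with another gene. Eif4enif1, which encodes the eIF4E transporter, was at 57.2 and 49.6 CPM in KO and 41.95 and 62.2 CPM in WT and overlapped.

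Of the 9 elongation factor genes 8 were below 0, with a median of -0.11 on the log2 scale and 4 genes whose groups did not overlap, all with KO lower (18.4% of all tested genes were so placed, and 39.6% either way). In Eef2 and Eif5a, which are among the 4, the gap was very small. None passed the adjusted threshold. Eef1a1 was at 3958 and 4891 CPM in KO replicates 1 and 2 and at 4855 and 4710 CPM in WT replicates 1 and 2. The low library was KO replicate 1, and KO replicate 2 was the highest of the 4. The log2 fold change of -0.11 ± 0.10 had an adjusted edgeR p of 0.885, and without KO replicate 1 it was 0.04. As a share of member counts Eef1a1 was 28.6% in KO replicate 1 and 32.3% to 32.5% in the other 3 libraries.

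Eef1a1 shares 60.6% of its windows with other genes. The processed pseudogene Gm13456 alone holds 37.1% of them, and it had 2415 and 3013 counts in KO and 1390 and 1189 in WT. Those counts are small beside the 63329 to 81935 counts of Eef1a1, and the sources used here do not say how the counting split reads between the 2. Eef1a2, the form of mature neurons and muscle, was at 1.87 and 2.33 CPM in KO and 2.43 and 1.81 CPM in WT. Per length it made up 0.046% to 0.060% of the eEF1A mRNA.

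Eef2, the translocase gene, was at 508.6 and 500.1 CPM in KO and 509.1 and 577.3 CPM in WT. The KO values lay below WT only by a small margin over WT replicate 1, and the log2 fold change was -0.11 ± 0.11. It was -0.19 with WT replicate 1 left out and -0.01 with WT replicate 2 left out. Eif5a, which needs the modified lysine hypusine to act, was at 241.5 and 231.7 CPM in KO and 242.2 and 271.3 CPM in WT, a log2 fold change of -0.12 ± 0.12 that was -0.20 and -0.03 with WT replicate 1 or 2 left out. Its relative Eif5a2 was at 21.7 and 27.2 CPM in KO and 29.7 and 33.3 CPM in WT, with KO lower, a log2 fold change of -0.36 ± 0.25 and an adjusted edgeR p of 0.810, and a value of -0.21 with KO replicate 1 left out. Eif5a2 gave 4.08% and 5.26% of the eIF5A mRNA per length in KO and 5.48% and 5.49% in WT.

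The 3 genes of the complex that recharges eEF1A with GTP, Eef1b2, Eef1d and Eef1g, had log2 fold changes from -0.17 to 0.14. Eef1e1, whose product sits in the multi-synthetase complex, was at 9.31 and 9.57 CPM in KO and 9.48 and 16.8 CPM in WT. WT replicate 2 was the high library. The log2 fold change was -0.47 ± 0.41, and -0.00 without that library.

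The 3 genes for enzymes that modify the elongation factors were above 0, with a median log2 fold change of 0.17. Eef2k, whose product phosphorylates and stops eEF2, was at 63.6 and 44.0 CPM in KO and 59.4 and 36.4 CPM in WT. KO replicate 1 and WT replicate 1 were the higher libraries, and the groups overlapped. Eef2kmt, which methylates eEF2, was at 19.2 and 13.6 CPM in KO and 12.7 and 8.62 CPM in WT. Its groups did not overlap, at a log2 fold change of 0.61 ± 0.38 and an adjusted edgeR p of 0.775, but 20.04% of its windows lie in the overlapping gene Alg1. The value was 0.35 with KO replicate 1 left out, 0.36 with WT replicate 2 left out and 0.93 with WT replicate 1 left out. Eef1akmt1, which methylates eEF1A, was at 15.4 and 16.5 CPM in KO and 11.1 and 17.3 CPM in WT.

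Genes of the same pathways under other names were followed in 6 lists, and edgeR called 0 genes of each list in either direction. In the integrated stress response, the programme set off by eIF2 alpha phosphorylation, 10 of 17 tested genes were above 0 and the median log2 fold change was 0.03. Its transcription factor Atf4 was at 162 and 175 CPM in KO and 196 and 173 CPM in WT. Atf3, a transcription factor induced by stress, was at 10.9 and 3.99 CPM in KO and 0.830 and 0.626 CPM in WT, a log2 fold change of 3.34 ± 0.79 with an adjusted edgeR p of 0.350. Psat1, of serine synthesis, was at -0.29 ± 0.15.

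Among 22 genes of mTORC1 and cap-binding control 11 lay on either side of 0, with a median of 0.00. Cyfip1, whose product binds eIF4E and also belongs to the WAVE actin complex, was at 165 and 152 CPM in KO and 94.9 and 104 CPM in WT. Both KO values were higher, at a log2 fold change of 0.67 ± 0.14 and an adjusted edgeR p of 0.312. Ncbp2, of the nuclear cap-binding complex, was lower in both KO libraries, at 34.9 and 40.8 CPM against 56.8 and 55.4 CPM, a log2 fold change of -0.57 ± 0.20 with an adjusted edgeR p of 0.523.

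Cytosolic aminoacyl-tRNA synthetase genes, 22 of them tested, had a median of -0.03 on the log2 scale, with Eprs at 0.31 ± 0.11 and Farsb at -0.37 ± 0.18. The 9 release, rescue and recycling genes had a median of 0.11, with Gspt2 at 0.36 ± 0.25 and Hbs1l at -0.22 ± 0.18. The 11 mitochondrial translation factor genes had a median of -0.11, with Gfm2 at -0.32 ± 0.18 and Mtfmt at 0.33 ± 0.30. The 11 tested genes for hypusine, diphthamide and selenocysteine, which serve eIF5A, eEF2 and selenoprotein synthesis, had 9 below 0 and a median of -0.14. Dhps, the first enzyme of hypusine synthesis, was at 52.0 and 68.3 CPM in KO and 79.9 and 82.2 CPM in WT. Eefsec, the selenocysteine elongation factor, was at 40.3 and 34.5 CPM in KO and 25.2 and 22.04 CPM in WT. Their log2 fold changes were -0.43 ± 0.20 and 0.66 ± 0.24, with adjusted edgeR p of 0.660 and 0.527.

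**Figure D4:**
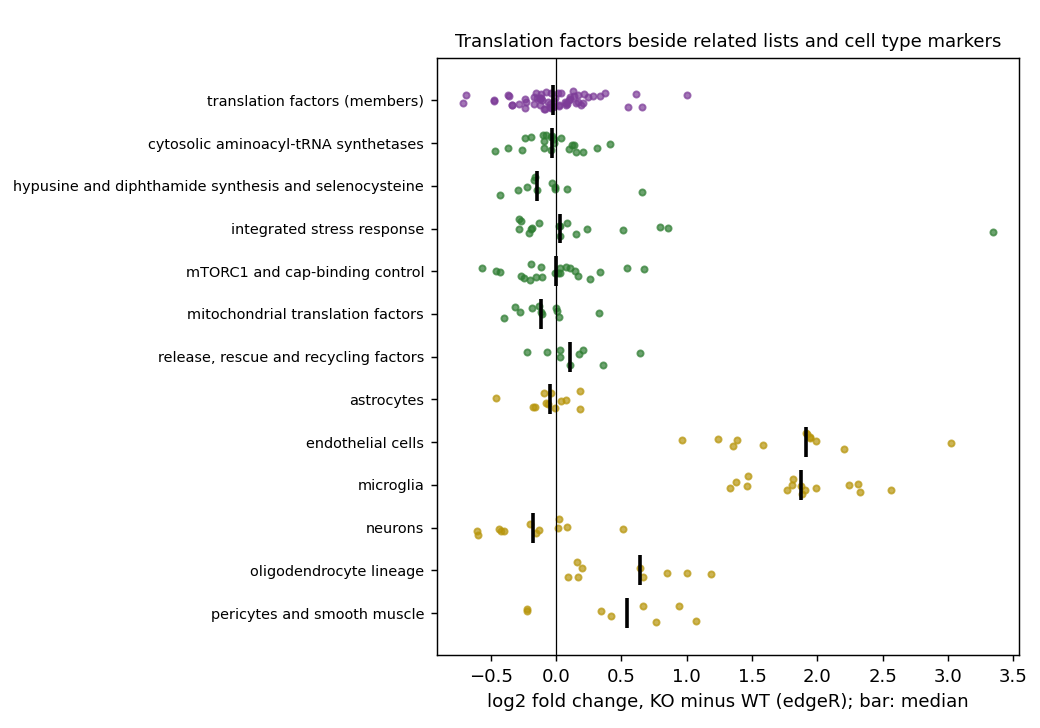
Log2 fold change, KO minus WT, of each tested gene in the translation factors, 6 lists of related genes and 6 lists of cell type markers, with a bar at each median. The translation factors and related lists have medians from -0.14 to 0.11, while all microglia and endothelial markers lie to the right of 0 with medians of 1.88 and 1.92.

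In the same fit the other marker lists had median log2 fold changes of -0.05 for astrocytes, -0.18 for neurons, 0.64 for the oligodendrocyte lineage and 0.54 for pericytes and smooth muscle. Of the microglia markers 1 of 15, P2ry12, passed the adjusted edgeR threshold. Among the 42 tested members with at most 10% of their windows shared, the median log2 fold change was -0.04 and 19 (45.2%) were separated, against 39.6% of all tested genes.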

How the data were processed

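The authors deposited 4 tables, each pairing a KO with a WT library, with whole-number counts per gene, per the file headers. Per the submitters' processing notes the tools included Bowtie2 2.2.3, TopHat2 2.0.12 and HTSeq 0.6.0. The notes name mm9, but 90.6% of gene positions were identical to GENCODE M21 on GRCm38, which is used here. Whether counting used the strand was not stated in those notes.

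The tables were joined by gene. A gene missing from a library's tables had at most 4 counts and was set to 0. All 4 libraries entered edgeR 4.0.16 (R 4.3.3) with TMM scaling, filterByExpr at a minimum count of 10, the quasi-likelihood test and Benjamini-Hochberg adjustment over 17696 genes, at a threshold of 0.05. This left 2 residual degrees of freedom. The SE is the log2 fold change over the square root of F. Library totals set the counting precision, and limits for counts of 0 (3 counts) cover counting error only. Both replicate pairs differed beyond sampling noise (chi-square per gene 17.9 for KO and 27.0 for WT).

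Alternatives were DESeq2 1.42.0, limma-voom (limma 3.58.1), other scalings, filters and thresholds, a replicate block, unlisted counts at their limit, no X and Y genes and leaving out each library. Restricting members by shared sequence was added after the data were seen. The scripts were tested on data simulated at the levels and scatter of all tested genes. There edgeR found 9 of 100 2-fold and 46 of 100 4-fold changes and called 5 unchanged genes. DESeq2 found 27 and 53 and called 60 unchanged genes. The changed genes were drawn from all tested genes, whose median SE was 0.36 against 0.19 for the members. These rates are therefore not those of the members. A lack of calls does not by itself show a lack of change. The members, the lists and the tests were chosen with earlier results of these data known. Genes were named by role: in each role the 2 most abundant and the 2 of smallest p, all members of paralogue pairs and families, untested members, and in each related list the 2 of smallest p. Atf4 and members given as ranges or by separation fall outside this rule.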

Additional observations from a re-analysis of the deposited data

How the results depend on the processing

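No alternative called a member lower or higher, apart from the Y gene Eif2s3y with KO replicate 1 left out. Over all genes, 52 were called higher and 4 lower with no filter, 63 and 5 with a mean CPM of at least 5, 315 and 63 by DESeq2, 25 and 3 by limma-voom, and 14 and 1 at an adjusted p of 0.1. Leaving out each library gave 0 to 41 genes higher and 0 to 1 lower, 0 to 1 members higher, 39 to 49 members separated, and a members' median log2 fold change of -0.0863 to 0.0004. Other settings kept that median between -0.04 and -0.02. With members restricted by shared sequence, 19 of the 42 tested (45.2%) were separated. The remaining settings separated 22 to 24 of 58 to 63 tested members. In the main fit 24 of 61 (39.3%) were separated, against 39.6% of all tested genes.

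No pairing was used, since same-numbered libraries deviated together only at a correlation of 0.0405. With the replicate number as a block 4 genes were called higher and 0 lower, 0 members were called, and the members' median was -0.04.

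Of 595 values for the 40 named members under the alternatives, 570 kept their direction and 25 reversed. All reversals were in members with a main log2 fold change of at most 0.34 in size. The values at an adjusted p of 0.1 are those of the main fit and could not reverse. Setting unlisted counts at their limit left the counts of every named member unchanged. With upper-quartile scaling Eif1 was at -0.0007. The other reversals came from leaving out 1 library, where the log2 fold change ranged from -0.27 to 0.0356 for Eef1a1, -0.21 to 0.22 for Eef1a2, -0.12 to 0.52 for Eef1akmt1, -0.14 to 0.56 for Eef2k, -0.12 to 0.17 for Eif1, -0.26 to 0.16 for Eif2b2, -0.28 to 0.0064 for Eif2d, -0.0908 to 0.26 for Eif3e, -0.0519 to 0.22 for Eif4a1, -0.17 to 0.28 for Eif4a2, -0.19 to 0.0816 for Eif4e, -0.0472 to 0.29 for Eif4e2, -0.76 to 0.10 for Eif4e3, -0.22 to 0.35 for Eif4enif1, -0.0244 to 0.25 for Eif4g2, -0.12 to 0.17 for Eif4g3 and -0.10 to 0.0846 for Eif5. The cause of these changes was not tested. Without a reversal, the range was -0.83 to -0.00 for Eef1e1, -0.42 to -0.05 for Eif2a, 0.01 to 0.16 for Eif2ak1, 0.06 to 0.25 for Eif2b3, 0.00 to 0.05 for Eif2b5, 0.09 to 0.42 for Eif3c and 0.37 to 2.21 for Eif3j2. With 1 library left in a group, that library is assumed to vary like the other group.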
